A study of Mus musculus with 69 samples.

Results

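The Batf knockout was followed in 5 of the 69 libraries of a bulk RNA series on mouse type 1 regulatory (Tr1) cells. They were chosen by title: 2 libraries labelled Batf KO and the 3 control libraries named for them. Naive CD4 T cells of C57BL/6 mice had been stimulated for 72 h with an antibody to CD3 at 1 µg/ml and with IL-27 at 25 ng/ml; the labels name an antibody to CD8 beside it. The controls are labelled WT, and no Cre line, floxed allele or further agent is given for either genotype. By its title the series is about what regulates IL-10, and this knockout asks which genes depend on Batf in such cells.

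The titles tie Batf_KO 1 to the control Ctrl_A 1 (batch A), and Batf_KO 2 to Ctrl_B 1 and Ctrl_B 2 (batch B). By title, Irf1_KO 1, the libraries labelled Irf8 knockout and Stat3_KO 1 use the same controls. Irf1_KO 2 and 3 stand with another control, Ctrl_C 2 (batch C). The fit held these 12 linked libraries, with genotype and batch as terms. For comparison, the Irf4 experiment had 2 libraries labelled Irf4 KO and 3 WT controls, and the Hif1a experiment had 2 libraries of Hif1a f/f cells with CD4 Cre and 2 of Hif1a f/f cells without it. All were C57BL/6, at the same time point and with the same stimulation. Whether replicates were separate animals or cultures is not labelled. The p-values therefore reflect library-to-library spread only, which may be technical.

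BATF is a basic leucine zipper protein of the AP-1 family. It binds DNA as a dimer with JUN proteins, and with IRF4 or IRF8 at composite elements, and it has no activation domain of its own. In T cells it is known for opening chromatin early after activation and for its part in Th17, follicular helper and effector CD8 cells.

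The 5 libraries held 1499834 to 2727170 counts and 10440 to 12194 detected genes, and ribosomal Rn45s took 2.73% to 4.97% of counts. No pair of libraries agreed within sampling noise (the lowest chi-square per degree of freedom was 5.73). Among the linked libraries, Irf8_KO 1 stands apart with 43.7% of its counts in Rn45s. CD4 T cell markers summed to 2640 to 3531 CPM over the 5 libraries (sums of markers here and below are relative to the unscaled library total), and of 10 tested Cd2 fell (-1.41 ± 0.24 on the log2 scale, edgeR adjusted p = 0.00269, lost without Batf_KO 1 and without Batf_KO 2). B cell markers summed to 9.56 and 14.7 CPM in knockout and 6.25 to 17.9 CPM in control libraries.

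Batf RNA was almost absent from both knockout libraries. It stood at 0 and 1.33 CPM, relative to the TMM-scaled library size as for each single gene below, in Batf_KO 1 and 2. These were 0 and 4 counts, against 65.5 CPM in Ctrl_A 1 and 59.7 and 60.4 CPM in Ctrl_B 1 and 2. The groups were far apart, and the log2 change was -6.28 ± 0.57 (SE of the fit, edgeR quasi-likelihood test, adjusted p = 1.01e-05). With so few counts its size is loose, -10.07 to -5.52 over the alternatives. Batf lies on chromosome 12, where 25 of 355 other tested genes passed the threshold, or 7.04%, against 4.08% on other chromosomes. Of the 100 tested genes nearest to Batf, 4 passed.

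In all, 447 of 11059 tested genes passed an adjusted p of 0.05, or 4.04%. Of these, 128 were higher in the knockout (1.16% of genes tested) and 319 were lower (2.88%), while the median change of all genes was 0.03. All 319 lower genes lay below every control of their own batch in both knockout libraries, and 127 of the 128 higher genes lay above them. Of all genes tested, 44.4% lay beyond their controls in 1 direction in both batches. The 319 and 128 genes were called on these same libraries, which favours such a result, so it is no separate support. The count was lower without Batf_KO 1 or without Batf_KO 2, and was 233 without Ctrl_A 1. Such fits also have fewer degrees of freedom, and the cause of the drop was not tested. Genes named below passed under all 13 alternative settings unless a sentence says otherwise.

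**Figure D1:**
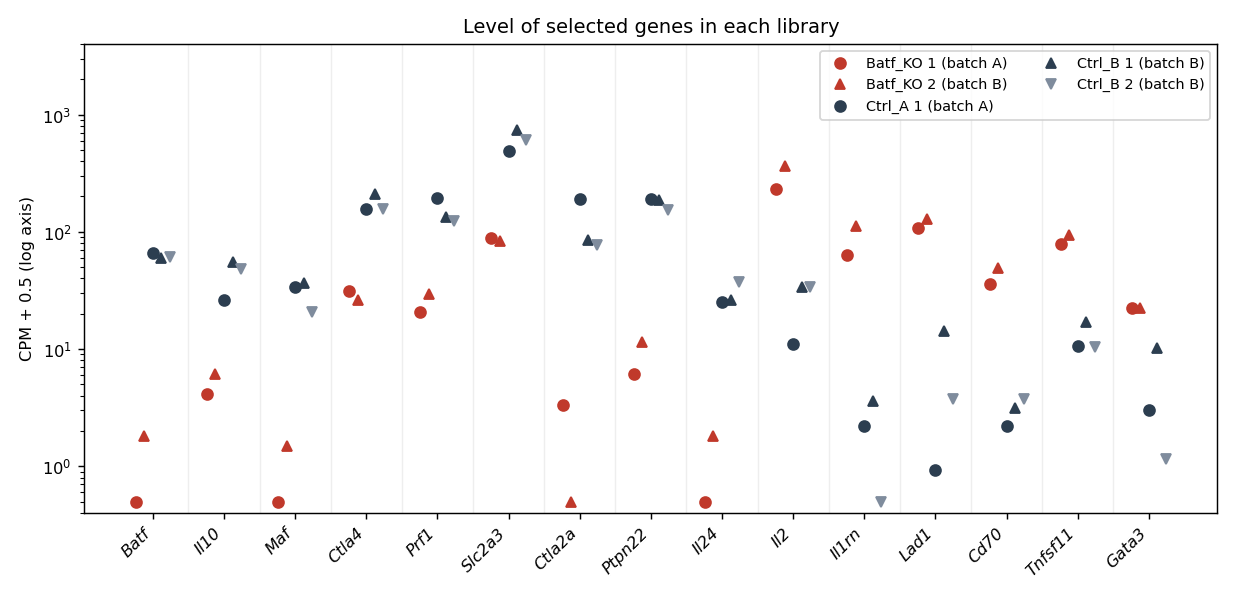
Level of 15 genes in each of the 5 libraries, as CPM plus a pseudocount of 0.5 on a log axis; each marker is 1 library, red for knockout and dark or grey for control. For each gene both knockout libraries lie on the same side of the controls of their batch, with Batf at 0 and 1.33 CPM against 59.7 CPM or more. Genes from the largest changes were chosen for lying so. The others shown passed the threshold in these same libraries, which favours it.

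Most genes of BATF's partners did not pass, as was so for all genes tested (10612 of 11059 did not pass). Of 18 tested members of the AP-1 and partner list, Fosl2 fell, Irf8 rose and 16 did not pass, with a list median of -0.06. On the per-length TPM scale of the deposited tables, Junb (454 TPM), Irf8 (227), Jund (198) and Irf4 (153) were the most abundant partners in controls, ahead of Batf itself (97.4), Batf3 (79.2), Fosl2 (34.3) and Jun (24.04). Fos was at 1.23 TPM in controls.

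Irf4, which encodes the interferon regulatory factor that binds with BATF, stood at 545 and 646 CPM in knockout and 431, 577 and 568 CPM in control libraries. Its change of 0.23 ± 0.23 did not pass (adjusted p = 0.735). Irf8, the other IRF partner, was at 771 and 925 CPM against 332 in Ctrl_A 1 and 471 and 600 in Ctrl_B, a rise of 0.95 ± 0.22 (adjusted p = 0.0204). The Irf8 groups did not overlap, but its call was lost under 5 of the 13 alternatives, among them the fits without Batf_KO 1 and without Batf_KO 2.

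Among the leucine zipper genes, Fosl2, a FOS family member, was at 51.0 and 81.7 CPM in knockout against 134, 141 and 170 CPM in control libraries. That fall was -1.12 ± 0.21 (adjusted p = 0.00595), not past the threshold without Batf_KO 1 or without Batf_KO 2. Batf3, the closest relative of Batf on the list, was at 3.65 and 16.3 CPM against 24.1, 24.8 and 69.6 CPM. The libraries did not overlap, yet the change of -1.82 ± 0.55 did not pass (adjusted p = 0.0863; DESeq2 0.0194). Jun (0.14 ± 0.29), Junb (-0.59 ± 0.23) and Jund (-0.14 ± 0.30) did not pass either.

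The Tr1 programme fell in part. Of 21 tested members, 8 were lower and 1 was higher, with a median change of -1.09 against 0.03 over all genes tested. Il10, Maf and Ctla4 fell, while the checkpoint receptor genes Lag3 (-0.53 ± 0.21), Tigit (-0.74 ± 0.28) and Pdcd1 (0.47 ± 0.27) did not pass. The number of lower members was 5 without Batf_KO 1 and 5 without Ctrl_A 1.

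Il10, which encodes the cytokine that defines Tr1 cells, was at 3.65 and 5.64 CPM in Batf_KO 1 and 2, at 25.8 CPM in Ctrl_A 1 and at 54.4 and 47.9 CPM in Ctrl_B. Both knockout libraries were low and the control of batch A was lower than those of batch B. Its change was -3.06 ± 0.42 (adjusted p = 0.000484), an 8.31-fold lower level, and was -2.66 within batch A and -3.07 within batch B. Over the 13 alternatives the change ran from -3.27 to -2.79 and passed in each, with a highest adjusted p of 0.0473.

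Maf encodes c-MAF, a transcription factor that binds the Il10 locus in IL-10-producing T cells. It had 0 and 3 counts in the knockout libraries against 79, 82 and 31 in the controls. The ratio of summed counts was 55.1-fold, with an exact 95% counting interval of 18.6 to 269 that covers counting error only (edgeR adjusted p = 0.000226).

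Ctla4, an inhibitory receptor of T cells, was at 30.8 and 25.9 CPM against 156, 210 and 155 CPM (-2.48 ± 0.29, adjusted p = 9.53e-05). The knockout libraries were alike and well below the controls. Nfil3, a leucine zipper factor of IL-10-producing and Th2 cells, was at 27.9 and 40.8 CPM against 226, 146 and 98.4 CPM (-2.16 ± 0.30). Gzmb, which encodes granzyme B, changed by -1.42 ± 0.20 from 1703 CPM or more in controls to 760 and 747 CPM.

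Smaller or less stable falls were those of Icos (-1.09 ± 0.23), a co-stimulatory receptor, Entpd1 (-3.01 ± 0.67), the ectonucleotidase CD39, and Bhlhe40 (-1.05 ± 0.27), a helix-loop-helix repressor. Each lost its call in 4 of the 13 alternatives. Cd226, an activating receptor that shares ligands with TIGIT, was the member that rose, from 5.91 to 16.1 CPM in controls to 44.1 and 45.5 CPM (2.10 ± 0.42), not past the threshold without Batf_KO 1 and without Batf_KO 2. Prdm1 (-1.94 ± 0.58, adjusted p = 0.0866) and Ahr (-1.50 ± 0.75) did not pass, and Havcr2, at 0 to 5 counts, was not tested.

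**Figure D2:**
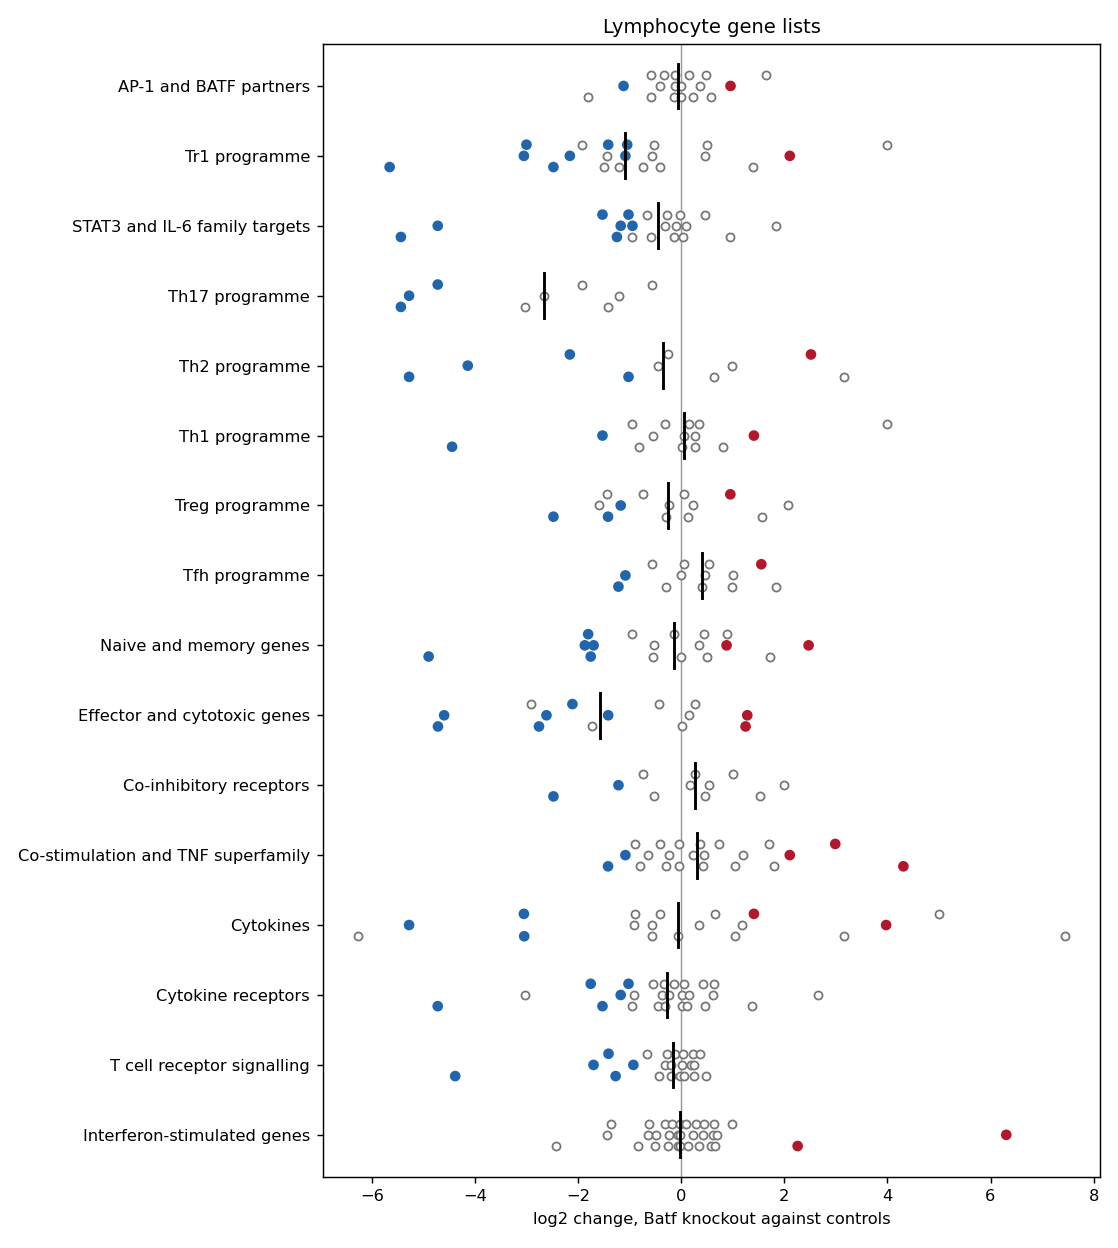
Log2 change, Batf knockout against controls, of each tested member of 16 gene lists; filled points passed an adjusted p of 0.05 (blue lower, red higher), open points did not, and the black line is the list median. The medians of the Tr1 programme (-1.09) and of the effector and cytotoxic genes (-1.58) lie to the left of 0.

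Of the other helper programmes, the Th17 list had the lowest median. All 9 tested members had values below 0, with a median of -2.66. Of these 3 fell, Il24 and Il23r among them, and none rose by edgeR, by unadjusted p or by DESeq2. Several members were near the floor, with Ccr6, Ccl20, Il1r1 and Rora at 0 to 3.98 CPM in all 5 libraries. The value of Ccl20 ran from -2.04 to 1.96 over the alternatives that tested it, so the direction of such low members is loose. The fall count was 1 without Batf_KO 1 and without Batf_KO 2. Il23r, a receptor chain that Th17 cells use, was already low in these cells. It had 1 and 0 counts in knockout and 10, 8 and 18 in control libraries, a ratio of 31.0-fold (exact 95% counting interval 5.22 to 1260). Its call was lost in 6 of the 13 alternatives, and Il17a had 0 counts in every library.

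Among 15 Th1 genes, Ifng rose while Hlx and Il12rb2 fell, and Tbx21, the Th1 master factor, was level (0.05 ± 0.25). Ifng was at 187 CPM in Batf_KO 1 against 59.1 in Ctrl_A 1, and at 656 CPM in Batf_KO 2 against 320 and 219 in Ctrl_B. The batches differed in level but the knockout was above its own controls in each (1.41 ± 0.22, adjusted p = 0.00131; not past the threshold without Batf_KO 1 and without Batf_KO 2 or without the batch term). Hlx, a homeobox factor that acts with T-bet in Th1 cells, was at 2.02 and 0.664 CPM against 29.2, 22.6 and 25.6 CPM (-4.45 ± 0.53, adjusted p = 0.000128). Il12rb2, the IL-12 receptor chain, changed by -1.53 ± 0.30, and not past the threshold without Batf_KO 1.

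Among 10 Th2 genes, 4 fell and Gata3 rose. Gata3, the Th2 master factor, was at 21.9 CPM in both knockout libraries against 2.54, 9.73 and 0.656 CPM in the controls. Its change of 2.51 ± 0.62 (adjusted p = 0.0328) was lost in 5 of the 13 alternatives. Il4 had 0 counts in all 5 libraries, and Foxp3, the regulatory T cell factor, did not pass (1.56 ± 1.04).

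Of 19 tested cytokine genes, Il24, Il10 and Tgfb3 fell and Il2 and Ifng rose. Il2, the T cell growth factor, was at 230 and 364 CPM in the knockout libraries, at 10.6 CPM in Ctrl_A 1 and at 33.2 and 33.5 CPM in Ctrl_B. That is a 15.7-fold higher level (3.97 ± 0.30, adjusted p = 2.34e-06), 4.38 within batch A and 3.43 within batch B. Il24, an IL-10 family cytokine, went the other way, with 0 and 4 counts against 58, 58 and 56 (-5.28 ± 0.80; -9.52 to -4.25 over the alternatives). Tgfb3 was at 2.83 and 4.32 CPM against 31.7, 39.4 and 18.4 CPM (-3.05 ± 0.48, not past the threshold without Batf_KO 1); it is the 1 gene called among the 20 tested genes nearest to Batf.

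The cytokine receptor genes that passed in the main fit were all lower, though 11 of the 26 tested had values above 0. In a fit of 21 libraries, described below, 6 fell and 2 rose. In the main fit 5 of the 26 fell and none rose by edgeR (3 were higher by unadjusted p under 0.05, and DESeq2 called 1), with a median of -0.28. Il2ra, the high-affinity chain of the IL-2 receptor, was at 366 and 471 CPM against 957, 950 and 891 CPM (-1.18 ± 0.24, adjusted p = 0.00843), while its ligand gene Il2 rose. Il7r changed by -1.76 ± 0.26 and Il4ra by -1.03 ± 0.22 (lost without Batf_KO 1, Batf_KO 2 or Ctrl_A 1). Without Batf_KO 1 no receptor gene passed, without Batf_KO 2 3 did and without Ctrl_A 1 3 did. Of 20 tested STAT3 and IL-6 family targets, 7 fell and none rose by edgeR (2 were higher by unadjusted p under 0.05, and DESeq2 called 0). They included Il23r, Il12rb2, Hif1a, Il2ra, Il4ra and the feedback inhibitor gene Socs3 (-0.95 ± 0.23, lost in 6 of the 13 alternatives), while Stat3 itself was at -0.27 ± 0.22. This count was 0 without Batf_KO 1, 2 without Batf_KO 2 and 3 without Ctrl_A 1.

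Glycolysis and hypoxia genes fell as broad groups in both knockout libraries. Of 23 tested glycolytic enzymes and transporters, 19 were lower and none was higher, with a median of -1.08. Of 24 hypoxia response genes, 17 were lower and none was higher, with a median of -1.23. The lists share Slc16a3 and Pdk1, and of their 45 genes together 35 were lower. By unadjusted p under 0.05 no member of either list was higher, and DESeq2 called none higher.

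Glucose transporter genes were among those that fell. Slc2a3, the neuronal-type glucose transporter GLUT3, was at 87.9 and 82.7 CPM in knockout against 488, 744 and 610 CPM in control libraries (-2.82 ± 0.25, adjusted p = 1.01e-05). Slc2a1, which encodes GLUT1, was at 84.6 and 144 CPM against 297, 383 and 505 CPM (-1.76 ± 0.22). In both genes every knockout library was below every control.

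Each step of the pathway from hexokinase to lactate export had a member that fell. These were Hk1 (-0.998 ± 0.25) and Hk2 (-1.04 ± 0.26), Gpi1 (-0.81 ± 0.20), Pfkl (-1.24 ± 0.27), Pfkm (-1.08 ± 0.28) and Pfkp (-0.82 ± 0.19), and Aldoa (-0.82 ± 0.21) and Aldoc (-2.95 ± 0.24). Below the split of fructose bisphosphate were Tpi1 (-1.22 ± 0.22), Gapdh (-1.12 ± 0.23), Pgk1 (-1.08 ± 0.21), Pgam1 (-1.36 ± 0.21), Eno1 (-1.17 ± 0.22), Pkm (-1.52 ± 0.22), Ldha (-0.87 ± 0.21) and the lactate exporter gene Slc16a3 (-2.10 ± 0.23). Gapdh, often taken as a reference gene, was at 4566 and 4344 CPM against 11850, 8522 and 8350 CPM. The lactate transporter Slc16a1 (0.27 ± 0.22) and the minor isoenzyme genes Eno2 (0.45 ± 0.75) and Pfkfb4 (-0.64 ± 0.65) did not pass.

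Among the hypoxia genes, Ndrg1, a stress response gene, was at 23.5 and 25.9 CPM against 165, 228 and 248 CPM (-3.10 ± 0.27, adjusted p = 9.12e-06). Bnip3, a mitophagy receptor gene, was at 45.4 and 50.8 CPM against 425, 286 and 230 CPM (-2.73 ± 0.27). The prolyl hydroxylase genes Egln1 (-1.69 ± 0.22) and Egln3 (-1.95 ± 0.21), whose products mark HIF-1α for degradation, fell as well. Hif1a itself was at 192 and 205 CPM against 636, 375 and 338 CPM (-1.25 ± 0.32, adjusted p = 0.0396), a call lost in 6 of the 13 alternatives. Vegfa (-0.23 ± 0.37), Ddit4 (-0.63 ± 0.25) and Adm (-0.40 ± 1.02) did not pass.

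The counts in these groups were lower under several alternatives, and the cause was not tested. The glycolytic list had 5 lower members without Batf_KO 1, 8 without Batf_KO 2, 8 without Ctrl_A 1 and 10 without the batch term. The hypoxia list had 9 without Batf_KO 1, 9 without Batf_KO 2, 11 without Ctrl_A 1 and 10 without Ctrl_B 1. Slc2a3, Slc2a1, Aldoc, Pkm, Slc16a3, Ndrg1, Bnip3, Egln1 and Egln3 passed in each of these fits, and the other enzymes named lost their call in at least 1 of them.

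Other metabolic and growth lists did not share the fall. Of 30 tested respiratory chain subunits none passed (2 were higher by unadjusted p under 0.05, and DESeq2 called 0), with a median of 0.12. Of 16 TCA cycle enzymes none passed (4 were higher by unadjusted p, and DESeq2 called 0), with a median of 0.18. None of 19 Myc and ribosome biogenesis genes passed (5 higher and 1 lower by unadjusted p, DESeq2 0). Of these, 16 had values above 0, with a median of 0.415, while Myc was at -0.44 ± 0.22. None of 28 cell cycle genes passed (3 higher and 1 lower by unadjusted p, DESeq2 0), with a median of 0.05. In the fit of 21 libraries 3 Myc and ribosome biogenesis genes, 4 TCA cycle enzymes and 1 respiratory chain subunit were higher. None of these 3 lists had a lower member there, and 1 cell cycle gene was lower. In bulk samples such as these, fewer cells of a type and less RNA per cell cannot be told apart.

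**Figure D3:**
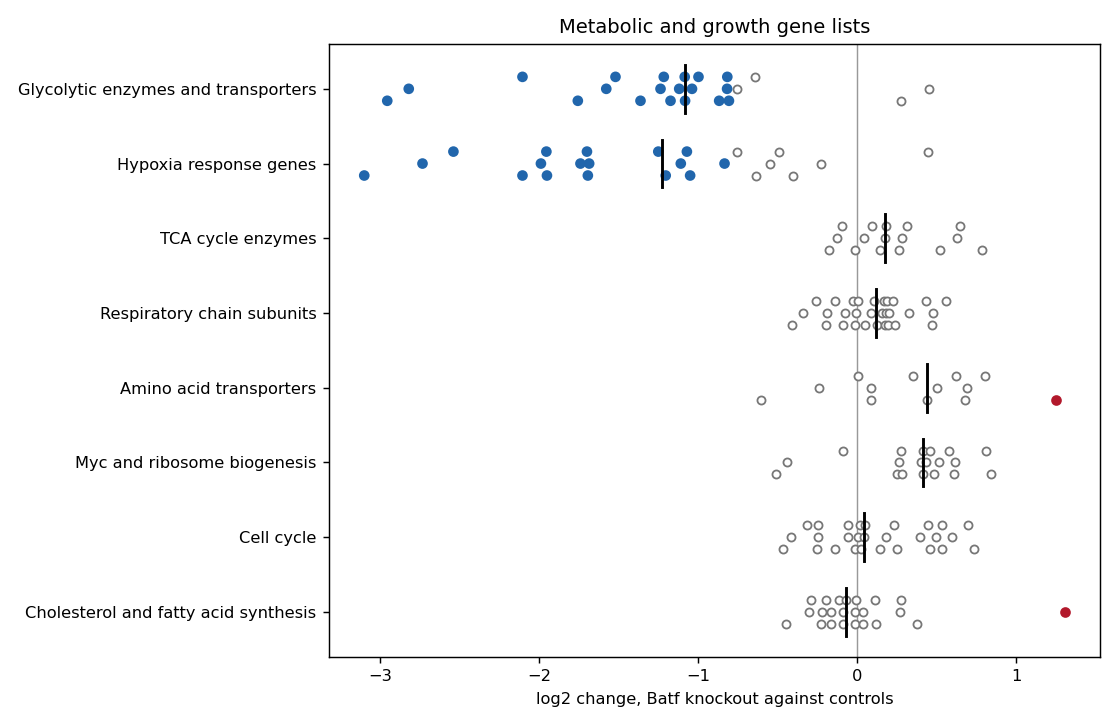
Log2 change, Batf knockout against controls, of each tested member of 8 metabolic and growth lists; filled points passed an adjusted p of 0.05, open points did not, and the black line is the list median. The 19 glycolytic and 17 hypoxia genes that passed all lie below 0, while TCA cycle and respiratory chain genes lie around medians of 0.18 and 0.12.

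Several cytotoxic and natural killer receptor genes fell. Of 14 tested effector genes, 6 were lower and 2 were higher, 6 did not pass, and the median was -1.58. Prf1, which encodes the pore protein perforin, was at 20.2 and 29.2 CPM against 195, 134 and 123 CPM (-2.62 ± 0.35, adjusted p = 0.000336). Klrc1, the inhibitory receptor NKG2A, was at 1.62 and 2.32 CPM against 60.0, 38.0 and 47.3 CPM (-4.72 ± 0.59). Both genes were low in each knockout library and no control overlapped with them.

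The activating receptor gene Klrk1 (NKG2D) changed by -2.76 ± 0.34. Klrd1, the CD94 partner of NKG2A, changed by -4.60 ± 0.90 (lost without Batf_KO 2), and the cathepsin gene Ctsw by -2.11 ± 0.30 (lost without Batf_KO 1). The 2 members that rose encode intracellular serpins, which restrain granule proteases. Serpinb9 changed by 1.25 ± 0.23 (lost without Batf_KO 1 and without Batf_KO 2 or Ctrl_A 1) and Serpinb6b by 1.28 ± 0.20, the latter from 505 to 619 CPM in controls to 1310 and 1312 CPM in the knockout libraries (lost without Batf_KO 1). None of 4 tested CD8 T and NK cell markers passed (2 higher by unadjusted p, DESeq2 0), and Ncr1, Klrb1c, Klra1, Klra7, Klra8 and Gzmk were at 0 in every library. That list summed to 859 and 770 CPM in knockout and 684 to 735 CPM in control libraries, nearly all of it Nkg7 (0.15 ± 0.21). The other tested markers also had values above 0, namely Cd8a (2.13 ± 1.00), Cd8b1 (1.42 ± 0.41) and Eomes (3.99 ± 1.22). Cd8b1 was at 26.3 and 47.1 CPM against 14.8, 11.9 and 17.7 CPM, and Eomes at 6.89 and 3.98 CPM against 0.442 CPM or less. Cd8b1 (adjusted p = 0.0084) and Eomes (adjusted p = 0.00524) passed in the fit of 21 libraries. The part of such cells in the cytotoxic values was not tested.

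Besides Batf, the largest falls were those of Ctla2a, Maf, Il24, Dntt, Itga7, Klrc1, Serpinb5, Sema4f, Hlx, Ptpn22, Tmem163, Selenbp1, Ecm1 and Mt1. The rule that named them asks for 20 CPM in the higher group and for each knockout library beyond the controls of its batch. Ctla2a, which encodes an inhibitor of cysteine proteases, was at 2.83 and 0 CPM against 190 CPM in Ctrl_A 1 and 84.5 and 76.8 CPM in Ctrl_B (-6.55 ± 0.54, adjusted p = 4.71e-06; -10.66 to -5.85 over the alternatives). Its near copy Ctla2b makes the split of reads between them uncertain.

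Ptpn22, a phosphatase that restrains T cell receptor signalling, was at 5.67 and 10.96 CPM against 190, 185 and 154 CPM (-4.39 ± 0.33, adjusted p = 2.34e-06). The 3 controls were close to each other and both knockout libraries lay far below them. Of 22 tested genes of receptor signalling, 4 more fell, namely Txk (-1.70 ± 0.39), Cd2, Themis (-1.28 ± 0.34) and Nfatc2 (-0.93 ± 0.23), and none rose by edgeR, by unadjusted p under 0.05 or by DESeq2. That count of 5 was 1 without Batf_KO 1 and 1 without Batf_KO 2, 2 without Ctrl_A 1 and 3 without Ctrl_B 1, and Ptpn22 passed in each of these fits.

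Dntt, the terminal transferase of immature lymphocytes, was at 0.810 and 1.33 CPM against 49.9, 28.3 and 19.7 CPM (-4.90 ± 0.48). Serpinb5, which encodes maspin, was at 4.05 and 1.99 CPM against 103, 50.9 and 66.9 CPM (-4.72 ± 0.36). Sema4f, a semaphorin gene, was at 7.70 and 5.98 CPM against 180, 111 and 132 CPM (-4.46 ± 0.28). Controls of batch A were the highest for all of them, and both knockout libraries were near the bottom of the measured range.

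Itga7, an integrin chain, changed by -4.84 ± 0.45, Selenbp1, a selenium-binding protein gene, by -4.26 ± 0.27, and Ecm1, an extracellular matrix protein gene, by -4.14 ± 0.46. Mt1, a metal-binding metallothionein with a near copy in Mt2, was at 35.6 and 38.2 CPM against 1004.7, 530 and 482 CPM (-4.12 ± 0.38).

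**Figure D4:**
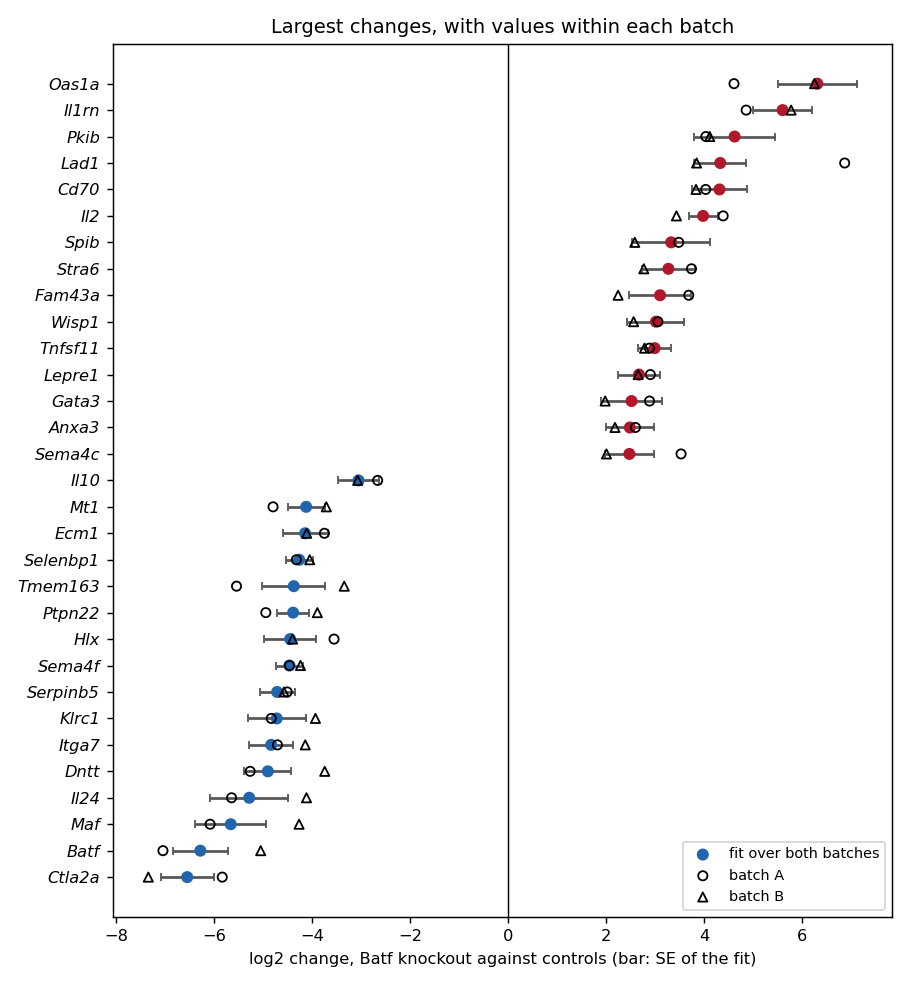
Log2 change of Batf, Il10 and the 29 genes with the largest changes, by the fit over both batches (filled, bar: SE) and within batch A (circle) and batch B (triangle). The 29 were chosen with each knockout library beyond the controls of its batch. Their batch values thus lie on the same side of 0 by that choice. Sizes for genes with libraries at 0, such as Batf, Ctla2a, Maf, Il24, Tmem163 and Oas1a, depend on the prior count of the fit.

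The named rises were Oas1a, Il1rn, Pkib, Lad1, Cd70, Il2, Spib, Stra6, Fam43a, Wisp1, Tnfsf11, Lepre1, Gata3, Anxa3 and Sema4c. Several were close to absent in controls. Il1rn, the antagonist of the IL-1 receptor, was at 62.8 and 111 CPM against 1.69, 3.10 and 0 CPM (5.60 ± 0.60, adjusted p = 5.9e-05). Lad1, an anchoring filament protein gene, was at 107 and 128 CPM against 0.423, 13.7 and 3.28 CPM (4.32 ± 0.53, adjusted p = 0.000171). The rule that named both genes asks for knockout libraries above the controls of their batch.

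Among genes of the TNF superfamily and co-stimulation, 3 of 22 rose and 2 fell. Cd70, the ligand of CD27, was at 35.2 and 48.8 CPM against 1.69, 2.65 and 3.28 CPM (4.31 ± 0.56, not past the threshold without Batf_KO 2). Tnfsf11, which encodes RANKL, was at 77.8 and 93.0 CPM against 10.1, 16.4 and 9.84 CPM (2.99 ± 0.34, adjusted p = 9.32e-05). Knockout libraries were alike in both genes and no control came near them. Tnfrsf9, the receptor 4-1BB, was at 529 and 596 CPM against 1391 CPM or more in controls (-1.42 ± 0.20). Without Batf_KO 2 the list had 1 rise.

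Oas1a, an interferon-induced gene with near copies, had 105 and 113 counts in knockout against 3, 0 and 0 in control libraries, a ratio of 84.4-fold (exact 95% counting interval 28.5 to 413; not past the threshold without Batf_KO 2). Of 32 tested interferon-stimulated genes only Oas1a and the GTPase gene Iigp1 (2.26 ± 0.33, lost without Batf_KO 2) passed, and the list median was -0.02. Spib, Fam43a, Gata3, Anxa3 and Sema4c lost their calls in 3 to 5 of the 13 alternatives, Pkib and Wisp1 without Batf_KO 1 and without Batf_KO 2, Stra6 without Batf_KO 1 and Lepre1 without Batf_KO 2.

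Genes of naive and memory cells split. Satb1, a chromatin organizer of T cells, was at 145 and 196 CPM against 724, 565 and 574 CPM (-1.87 ± 0.25). Id3, an inhibitor of E proteins, rose from 6.56 to 10.6 CPM to 36.9 and 64.7 CPM (2.47 ± 0.39), whereas its relative Id2 fell from 68.3 to 138 CPM to 20.7 and 20.9 CPM (-2.31 ± 0.29). In all, 5 of 17 such genes fell and 2 rose. Id3 did not pass without Batf_KO 2.

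MHC class II genes moved in opposite directions. H2-Ab1, the beta chain of I-A, was at 22.3 and 21.2 CPM against 198, 126 and 177 CPM (-2.91 ± 0.29, adjusted p = 2.08e-05). Cd74, the invariant chain, was at 175 and 152 CPM against 33.8, 31.0 and 40.7 CPM (2.19 ± 0.24, adjusted p = 6.42e-05). H2-Eb1, the beta chain of I-E, was at 44.96 and 28.6 CPM against 3.38, 11.1 and 10.5 CPM (2.22 ± 0.48), a call lost without Batf_KO 1 and without Ctrl_A 1. So the chains did not rise or fall together, and H2-Aa did not pass (1.36 ± 0.97).

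These 3 genes are also the members of the myeloid and dendritic marker list that passed, of 7 tested. That list summed to 293 and 257 CPM in knockout and 195 to 261 CPM in control libraries. Lyz1, Lyz2, Csf1r, Tyrobp, Clec9a, S100a8 and S100a9 were at 0 in all 5 libraries. Of the 7 tested members, 5 had values above 0 and 2 below, with a median of 1.365. By unadjusted p under 0.05, 4 were higher and 1 was lower. Cd68 ran from 1.10 to 1.44 over the 13 alternatives and passed in 1 of them. In the fit of 21 libraries 3 members rose and 1 fell. The part of such cells in these values was not tested.

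Promoter windows, 250 bases before to 50 after each gene's start, were read from RefSeq sequence (GRCm38.p6) and matched 8283 of the 11059 tested genes by symbol. The AP-1 letters TGANTCA were searched on both strands. They were found in 5.88% of these promoters, in 23 of 234 promoters of lower genes (9.83%) and in 7 of 92 of higher genes (7.61%). The cyclic AMP type letters TGACGTCA were in 3.72% of all, 0.427% of lower and 3.26% of higher promoters. The following stretches, shown because they belong to 3 of the largest falls and to Il1rn among the rises, are printed 5′ to 3′ on the gene's strand with the TGANTCA match in capitals. Ctla2a is at chr13:60936721-60936781 (minus strand), Serpinb5 at chr1:106861008-106861068 (plus), Ecm1 at chr3:95739600-95739660 (minus) and Il1rn at chr2:24336692-24336752 (plus).
Ctla2a: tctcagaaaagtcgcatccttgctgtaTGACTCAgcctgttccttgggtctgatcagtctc
Serpinb5: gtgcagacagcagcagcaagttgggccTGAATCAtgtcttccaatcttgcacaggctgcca
Ecm1: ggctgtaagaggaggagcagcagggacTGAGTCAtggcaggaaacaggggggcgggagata
Il1rn: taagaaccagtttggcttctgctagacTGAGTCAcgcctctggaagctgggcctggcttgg

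The core letters of the hypoxia response element, ACGTG, were in 30.4% of all promoters, 38.9% of those of lower genes and 20.7% of those of higher genes. Among the glycolysis and hypoxia genes that fell, 24 of 29 with a promoter held them, or 82.8%, while 1 of these 29 held TGANTCA. These lists name known targets of HIF-1α, and members that did not fall were not counted. The share can therefore not be tied to the knockout. Bnip3 at chr7:138909583-138909641 (minus strand) and P4ha2 at chr11:54100819-54100877 (plus) are shown because both fell strongly, by 2.73 and 2.54 on the log2 scale; capitals mark ACGTG on either strand, overlapping in Bnip3. A match is a description of letters, not a site of binding, and windows further from the start were not searched.
Bnip3: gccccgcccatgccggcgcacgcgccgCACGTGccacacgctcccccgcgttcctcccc
P4ha2: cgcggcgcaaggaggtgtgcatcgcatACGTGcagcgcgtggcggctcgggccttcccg

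The libraries labelled Irf8 knockout stand in the same batches and against the same controls, so the difference between the knockouts was tested directly. It passed for 361 of 11059 genes (3.26%), 84 higher and 277 lower in Batf knockout. Irf8 RNA itself was not lower in the libraries labelled Irf8 knockout (512 and 430 CPM, 0.12 ± 0.23), and a gene total need not show a deleted exon. The genes named for their change in Batf knockout were chosen on the same knockout libraries, so their passing here is no separate result.

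Il10 was at 31.1 and 88.4 CPM in the Irf8-labelled libraries against 3.65 and 5.64 CPM in Batf knockout (-3.61 ± 0.46, adjusted p = 0.000212). Maf was at 101 and 55.1 CPM against 0 and 0.996 CPM (adjusted p = 3.72e-05). Cd74 was at 1.95 and 4.24 CPM in the Irf8-labelled and at 175 and 152 CPM in the Batf knockout libraries, a difference of 5.49 ± 0.42 ( adjusted p = 3.28e-06). Relative to controls, Cd74 thus rose in Batf knockout and fell in the libraries labelled Irf8 knockout (-3.30 ± 0.43, adjusted p = 0.00582).

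The 23 glycolytic genes held 13 that were lower in Batf than in Irf8-labelled libraries and none that was higher. The count of 361 was 106 without Batf_KO 1, 165 without Batf_KO 2, 162 without Irf8_KO 1, the library rich in Rn45s, and 190 without Irf8_KO 2. The comparison of Stat3 shares these controls too, and that of Irf1 does in part, since Irf1_KO 2 and 3 stand with Ctrl_C 2. The values of Irf1 and Stat3 are therefore only set beside those of Batf. Il10 changed by -2.68 ± 0.40 in the 3 Irf1 libraries and by -3.98 ± 0.65 in the 1 Stat3 library. Il2 was at 271 CPM and Lad1 at 170 CPM in Stat3_KO 1, near their Batf knockout levels of 230 and 364 CPM, and 107 and 128 CPM.

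IRF4 binds DNA with BATF, and the Irf4 experiment has its own controls, so the effects could be compared in a fit of 21 libraries. In that fit the Batf effect passed for 1159 of 11441 genes (10.1%), 465 higher and 694 lower, more than the 447 of the 12-library fit. The Irf4 effect passed for 724 genes (6.33%), 471 higher and 253 lower, and Irf4 RNA was at 180 and 174 CPM in its knockout against 365 to 416 CPM in its controls (-1.12 ± 0.20). The effects differed from each other for 1150 genes (10.1%), 410 with a higher and 740 with a lower value for Batf. That count was 658 without Irf4_KO 2, 666 without Irf4_KO 1 and 668 without Batf_KO 1.

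Genes lower in Batf knockout were 6.07% of all tested, and genes higher or lower in Irf4 knockout 4.12% and 2.21%. Of the 694 genes lower in Batf knockout, 135 (19.5%) were higher in Irf4 knockout, which is 28.7% of the 471 genes higher there. Lower in both were 46 (6.63%), which is 18.2% of the 253 genes lower in Irf4 knockout. Of the 465 genes higher in Batf knockout, 4.06% of all tested, 38 (8.17%) were higher and 32 (6.88%) were lower in Irf4 knockout. These are 8.07% of the 471 and 12.6% of the 253.

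Il10 was such an opposite case. In the Irf4 experiment it was at 36.1 and 33.0 CPM in knockout against 3.89, 2.47 and 3.92 CPM in control libraries (3.24 ± 0.31). The difference between the effects was -6.31 ± 0.45 (adjusted p = 5.43e-09), and its Irf4 controls were low, near the Batf knockout libraries. Il24 was at 392.4 and 379 CPM in Irf4 knockout against 1.30 to 3.70 CPM in its controls, and the difference was -12.41 ± 0.80 (adjusted p = 1.86e-09). Il2 was at 0.480 and 0 CPM in Irf4 knockout against 15.6 to 19.8 CPM in its controls, where it rose in Batf knockout (difference 9.66 ± 0.59). At so few counts the sizes for Il2 and Il24 are loose.

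Cytotoxic genes also parted. Prf1 changed by 2.22 ± 0.24 and Gzmb by 1.71 ± 0.15 in Irf4 knockout, with differences of -4.85 ± 0.37 and -3.14 ± 0.22 from the Batf effect. Klrk1 fell in both (-2.79 ± 0.28 in Batf and -2.78 ± 0.28 in Irf4 knockout), and Tnfsf11 rose in both (2.95 ± 0.28 and 2.85 ± 0.30), with no difference past the threshold. Maf fell in both as well (-1.35 ± 0.39 in Irf4 knockout, adjusted p = 0.0403) but by more in Batf knockout (adjusted p of the difference 0.00142). No glycolytic gene fell in Irf4 knockout (4 rose), and 20 of 23 differed between the effects. Within the Irf4 experiment Xist, which is expressed from the inactive X chromosome, changed by -7.81 ± 0.54 between knockout and control libraries, against 0.45 ± 0.37 for Batf in the same fit. The sex of the animals and the Irf4 effect therefore cannot be told apart there.

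**Figure D5:**
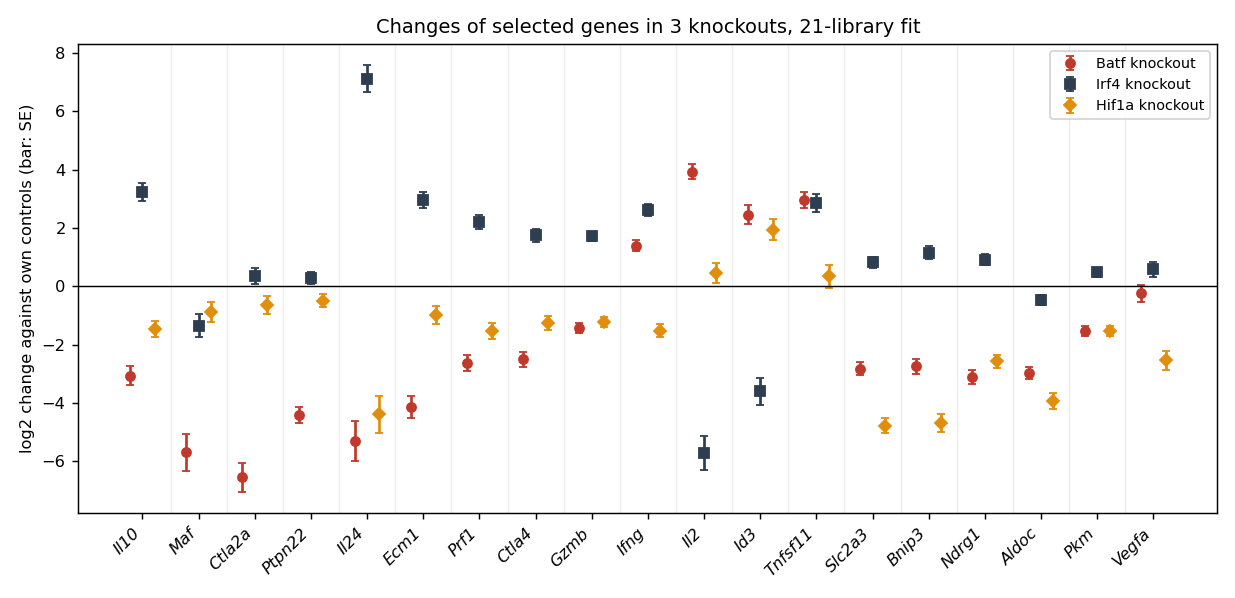
Log2 change of 19 genes against their own controls in the Batf, Irf4 and Hif1a knockouts, from the 21-library fit, with the SE as bars. Il10, Il24, Prf1, Ctla4 and Gzmb lie below 0 for Batf and above 0 for Irf4, and Slc2a3 and Bnip3 lie lowest for Hif1a.

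The Hif1a experiment was compared because the glycolysis and hypoxia genes are known targets of its product. In the libraries labelled Hif1a knockout 340 genes passed (2.97%), 50 higher and 290 lower, although Hif1a RNA was not lower (-0.31 ± 0.28). Of these 290, 217 (74.8%) were also lower in Batf knockout, which is 31.3% of the 694 genes lower there. Over all genes tested, 6.07% were lower in Batf and 2.53% in Hif1a knockout. Of the 50 genes higher in Hif1a knockout, 20 (40%) were higher in Batf knockout, where 4.06% of all tested were. In opposite directions were 2 genes lower in Batf and higher in Hif1a knockout, and 3 the other way. The effects differed for 104 genes (0.909%), 61 with a higher and 43 with a lower value for Batf. That count was 43 without Hif1a_KO 1 and 43 without Hif1a_Ctrl 2, 45 without Hif1a_Ctrl 1, 52 without Hif1a_KO 2, 52 without Batf_KO 2 and 59 without Batf_KO 1.

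The metabolic genes fell in both, and where they differed they fell further in Hif1a. Of the 45 glycolysis and hypoxia genes, 36 were lower in Hif1a and 37 in Batf knockout in this fit, with medians of -1.91 and -1.13. The difference passed for 10 of them, and all 10 lay lower in Hif1a. Slc2a3 was at 29.0 and 35.7 CPM in Hif1a knockout against 850 and 938 CPM in its controls, and its effect differed by 1.96 ± 0.31 from that of Batf (adjusted p = 0.00156). Bnip3 (1.94 ± 0.37), Tpi1 (1.56 ± 0.24) and Slc16a3 (1.36 ± 0.25) differed in the same direction. Vegfa fell in Hif1a (-2.53 ± 0.33) but not past the threshold in Batf knockout (difference 2.30 ± 0.44, adjusted p = 0.00969). Pkm changed by -1.54 ± 0.18 and -1.53 ± 0.16, and Ndrg1 by -2.57 ± 0.23 and -3.11 ± 0.23, differences that did not pass.

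Outside metabolism the Batf effect was the stronger for Ctla2a, Maf, Ptpn22, Hlx and Klrc1, each past the threshold for the difference. They were named for large falls in the same Batf knockout libraries, so that choice favoured a stronger Batf effect. Ptpn22 changed by -0.50 ± 0.22 in Hif1a and by -4.40 ± 0.27 in Batf knockout (difference -3.90 ± 0.35, adjusted p = 2.38e-06). Ifng fell in Hif1a (-1.52 ± 0.23) and rose in Batf knockout (difference 2.92 ± 0.30, adjusted p = 1.09e-05). Il10 fell in both, by 1.47 ± 0.29 and 3.07 ± 0.33 on the log2 scale, and the difference of -1.60 ± 0.43 did not pass (adjusted p = 0.107). Cd74 rose in both (2.90 ± 0.25 in Hif1a). In the Hif1a comparison 5 of 9 tested B cell markers rose with a median of 3.38, and 3 of 7 myeloid and dendritic markers rose with a median of 2.26. In the same fit 0 of the 9 B cell markers passed for Batf (median 0.83). The part of such cells in the Hif1a values was not tested.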

How the data were processed

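Each library's table, as the authors deposited it, gives RSEM expected counts and TPM by gene. Per the submitters' processing notes, TopHat, RSEM and the mm9 build were used; no versions are stated in the sources at hand. Polyadenylated RNA came from 2000 lysed cells per library, with an adaptation of SMART-Seq2, per the labels. The test on rounded expected counts was edgeR's quasi-likelihood F-test (edgeR 4.0.16, R 4.3.3; filterByExpr, TMM, glmQLFit), with Benjamini-Hochberg adjustment over all genes tested and a threshold of 0.05. The 12-library fit had 5 residual degrees of freedom. CPM are TMM-scaled in the fit named; TPM were used only to compare genes. Within-batch values used a pseudocount of 0.5 CPM. Batch C, set by exclusion, holds the libraries outside batches A and B. Irf4 and Hif1a libraries were added for differences of effects. The largest changes were named by rule: of the genes called, up to 15 in each direction by size of log2 change, given a mean of 20 CPM or more in knockout or control libraries and each knockout library beyond its batch controls. Other genes named are members of 35 lists; list members that did not pass, enzymes beyond the first 6 of a list and Xist were chosen after their values were seen. Members and lists were chosen with earlier results of these data known. Alternatives were DESeq2 1.42.0, its size factors, no filter on low counts, no batch term, other sets of libraries and leaving out single libraries; the 21-library fit was added after seeing the data. Tested on simulated data (10677 genes), the main fit recovered 25 of 100 genes changed by 1 on the log2 scale and 87 of 100 changed by 2. Beside these it made 15 false calls, a larger share of its calls than the threshold of 0.05. The simulation held no batch differences and changed only genes with a fair number of counts. In 48 libraries of other experiments nothing was analysed here. Some list members are not reported here.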

Additional observations from a re-analysis of the deposited data

Results flagged for a closer look

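Among Batf, Il10 and the 29 genes with the largest changes, 8 had an effect past the threshold in both the Batf and the Irf4 knockout, in opposite directions, and a difference between the effects past an adjusted p of 0.05 (edgeR, 21-library fit). Of the 29, 8 others passed in both knockouts in the same direction, 3 lower and 5 higher. The 29 were chosen for large changes in the same Batf knockout libraries, which favours a difference from Irf4. Batf is the deleted gene, so its fall is set by the design. Lower in Batf and higher in Irf4 knockout were Il24 (difference -12.41), Batf itself (-7.53), Ecm1 (-7.09), Il10 (-6.31) and Itga7 (-6.17). Batf was higher in Irf4 knockout by 1.24 ± 0.25, from 34.6 to 40.2 CPM to 94.3 and 78.6 CPM. Higher in Batf and lower in Irf4 knockout were Il2 (9.66), Anxa3 (6.32) and Stra6 (6.26). Anxa3 was at 0.721 and 0 CPM and Stra6 at 0.721 and 0.661 CPM in Irf4 knockout, near the level of single counts. Il2 was at 0.481 and 0 CPM there, and Batf and Il24 had 0 and 4 counts in Batf knockout, so the sizes of these differences are loose as well. Xist differed within the Irf4 experiment, so sex cannot be told apart from the Irf4 effect.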

How the results depend on the processing

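The count of 447 genes in Batf knockout was 442 with DESeq2 size factors, 527 with DESeq2, 665 with no filter on low counts, 376 with the 5 libraries alone, 404 with the 9 libraries of batches A and B and 1159 with all 21 libraries in 1 fit. Without the replicate block, that is without the batch term that ties each knockout library to its controls, 337 passed; the pairing comes from the titles. Leaving out single libraries gave 118 to 434. Against Irf8 the count of 361 was 255 without the block, 588 with no filter on low counts and 106 to 190 without single libraries. For the difference from Irf4 it was 658 to 1334 without single libraries, and for the difference from Hif1a (104) it was 43 to 124, and 188 with no filter. The cause of these moves was not tested, though a fit with fewer or more libraries also has fewer or more degrees of freedom. None of the 122 named genes past the threshold changed direction under these alternatives. These genes were called on the same libraries, so a change of direction was unlikely by that choice. Of them, 122 passed with DESeq2, 121 with its size factors, 93 without the batch term, 54 without Batf_KO 1, 59 without Batf_KO 2 and 78 without Ctrl_A 1. Depth limits genes below a few counts: a count of 3 equals 1.1 to 2 CPM, unscaled.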
